A study of Mus musculus with 2 samples.

Results

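The Prader-Willi and Angelman domain of mouse chromosome 7 was taken as the 4 Mb from 65800000 to 69800000 (mm9), and its members were all cytosines with at most 100 reads that the tables of replicate 2 list there. They numbered 48965 of the 27435342 cytosines listed for that library (3684 CpG, 31210 CHG and 14071 CHH sites, where H is A, C or T). The 2 Mb on each side held 45260 sites in all (3891 CpG, 31333 CHG and 10036 CHH) and served as flanks. The study made whole-genome bisulfite libraries of dentate gyri, micro-dissected on both sides from wild-type C57Black6 males, adults aged 8 to 10 weeks, with no treatment named. The dentate gyrus is a hippocampal region of granule neurons, interneurons and glia, so every level is an average over cells. Its 2 libraries form a single group, and replicate 1 listed only 25 CpG, 129 CHG and 501 CHH sites of at most 100 reads in the domain, so nearly all values come from replicate 2 and have no replicate error. The intervals given are exact Clopper-Pearson 95% intervals over reads or sites, and reflect only the error of counting, since reads copied by PCR may come from the same molecule.

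The domain is imprinted: many of its genes are expressed from the copy of a single parent. Its imprinting centre lies at Snrpn, where the maternal copy is methylated at CpG and the paternal copy is not. From the paternal copy come Snurf and Snrpn (a small nuclear ribonucleoprotein gene), the long transcript Snhg14 that hosts clusters of small nucleolar RNAs and runs through Ipw, and the separate genes Ndn (necdin), Magel2, Mkrn3 (a makorin RING finger gene) and Peg12. In neurons Ube3a, a ubiquitin ligase gene, is expressed mainly from the maternal copy, and Atp10a encodes a phospholipid-transporting ATPase. Loss of the paternal genes is linked to Prader-Willi syndrome in humans, and loss of maternal UBE3A to Angelman syndrome. Bisulfite converts unmethylated cytosine, and it cannot separate methylcytosine from hydroxymethylcytosine. The counts carry no allele, so a site at an intermediate level may be methylated on 1 parental copy in all cells or on both copies in some cells, and these cannot be told apart.

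RefSeq places 259 genes from Atp10a to Peg12, of which 206 are small nucleolar RNAs, 13 are microRNAs of the Mir344 family, 11 are long noncoding RNAs and 9 are protein-coding. The promoters of paternally expressed genes are shown because their CG letters are the kind of position whose methylation the domain is known for. Each is 300 bases around a RefSeq start (GRCm38.p6), on the gene's strand, with CG in capitals. Snurf shares its window with a listed start of Snrpn.
Snurf: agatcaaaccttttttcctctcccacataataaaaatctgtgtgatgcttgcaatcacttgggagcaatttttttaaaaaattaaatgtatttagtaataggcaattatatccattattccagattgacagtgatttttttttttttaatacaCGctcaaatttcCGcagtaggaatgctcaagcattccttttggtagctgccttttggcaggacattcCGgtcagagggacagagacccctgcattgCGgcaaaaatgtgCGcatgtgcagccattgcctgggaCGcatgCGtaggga
Ndn: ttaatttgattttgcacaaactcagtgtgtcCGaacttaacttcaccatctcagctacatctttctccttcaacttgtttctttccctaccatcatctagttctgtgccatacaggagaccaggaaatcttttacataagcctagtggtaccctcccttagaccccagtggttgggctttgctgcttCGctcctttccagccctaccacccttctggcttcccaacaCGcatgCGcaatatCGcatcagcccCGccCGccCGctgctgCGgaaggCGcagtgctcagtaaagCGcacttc
Magel2: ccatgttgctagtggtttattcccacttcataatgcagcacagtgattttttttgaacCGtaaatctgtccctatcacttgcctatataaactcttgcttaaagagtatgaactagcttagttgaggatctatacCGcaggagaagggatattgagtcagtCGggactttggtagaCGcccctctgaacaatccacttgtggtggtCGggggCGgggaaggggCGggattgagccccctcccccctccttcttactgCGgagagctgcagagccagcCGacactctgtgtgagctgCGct
Mkrn3: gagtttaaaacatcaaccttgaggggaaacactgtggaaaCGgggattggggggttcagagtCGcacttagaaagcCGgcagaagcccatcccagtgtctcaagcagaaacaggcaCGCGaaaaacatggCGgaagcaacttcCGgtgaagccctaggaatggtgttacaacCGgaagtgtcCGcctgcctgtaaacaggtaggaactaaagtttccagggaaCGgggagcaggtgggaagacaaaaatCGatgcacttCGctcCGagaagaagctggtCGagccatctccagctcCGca
Snurf had 7 CG in its window, Ndn 11, Magel2 10, Mkrn3 15 and Peg12 12, against a median of 7 (quartiles 3 and 20) over 32851 RefSeq promoters. Ube3a had 29 and Atp10a 20, while Snhg14 had 2 and Ipw 1. The 15 promoter windows matched among the neighbouring genes (Gabra5, Gabrg3, Oca2, Herc2, Nipa1, Nipa2, Tubgcp5, Otud7a, Klf13, Trpm1, Mtmr10, Fan1 and Chrna7) held 2 to 51. RefSeq positions belong to another build, so none is printed. A window was placed in mm9 only where at least 9 listed cytosines fell on cytosines of the right context and none fell elsewhere. By this criterion the windows of Snurf, Ndn, Magel2, Mkrn3, Peg12, Atp10a, Ube3a, Snhg14 and Snrpn were not placed, and the Snrpn and Ndn results below are therefore given by position. The Ndn landmark, 69.5 Mb, is a rounded position that the rule gives for Ndn, Magel2 and Mkrn3 together. The Ndn step is the 100 kb after it, and which of these genes it holds was not determined.

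CpG methylation of the domain was 75.5% of reads (95% interval 75.3 to 75.8%), against 76.4% (76.1 to 76.7%) in the flanks and 79.0% over all autosomes. The flank on the side of the lower coordinates was at 76.7% and the other at 76.1%. Its difference was -0.835 points from the flanks and -3.48 points from the autosomes, and against flanks of 1 Mb the first became 0.0469 points, with the sign reversed. Ranked among autosomal stretches of 4 Mb, some of which overlap the domain, 57 of 610 (9.34%) had a lower CpG level. The median site was at 81.8% in the domain (quartiles 64.0 and 92.3%), at 85.7% in the flanks (66.7 and 95.2%) and at 88.5% over the autosomes (71.4 and 95.8%), with a median depth of 23 reads in each.

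The domain differed more in how its sites were spread than in its mean. CpG sites at 30 to 70% made up 27.0% of the domain (995 of 3684; 25.6 to 28.5%), 20.6% of the flanks (800 of 3891; 19.3 to 21.9%) and 16.9% of autosomal sites (484393 of 2870859). The 2 flanks were at 21.1% and 20%, so the domain exceeded both. Only 2 of 610 autosomal stretches of 4 Mb had a higher share than the domain, with a median of 16.6% and a highest value of 33.1%. Fully methylated sites were fewer, 12.7% in the domain against 17.0% in the flanks and 20.5% over the autosomes. Sites below 30% were also fewer, 5.02% (185 sites) against 8.25% (321 sites) and 7.39%. Within the band the excess lay mainly just under its upper end, since 11.1% of domain sites were at 60 to 70%, against 7.63% in the flanks and 6.28% over the autosomes. It went on above the band, so it was not particular to intermediate levels. At 70 to 80% lay 14.4% of domain sites, against 11.3% and 9.92%, and at 80 to 90% lay 20%, against 18% and 17.9%.

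**Figure D1:**
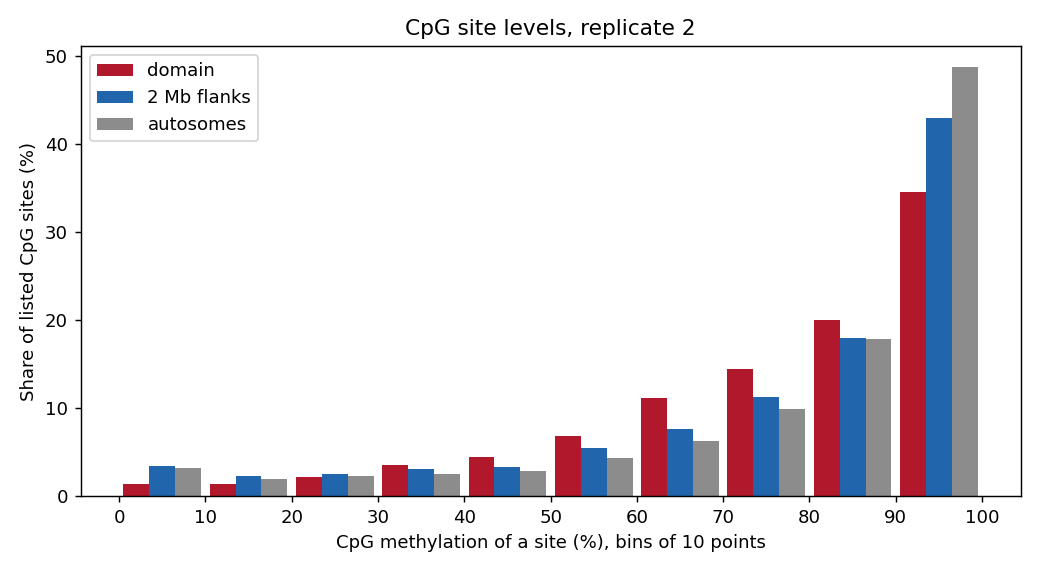
Share of listed CpG sites (y axis, percent) in bins of 10 points of CpG methylation (x axis, percent) in replicate 2, for the domain, its 2 Mb flanks and all autosomes. The domain has the lowest bar at 90 to 100% (34.6%, against 42.9% in the flanks and 48.7% over the autosomes) and the highest from 30 to 90%.

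A two-sided exact binomial test of each CpG site against the autosomal level, with Benjamini-Hochberg adjustment over all autosomal sites at 0.05, called 679 domain sites lower (18.4%; 17.2 to 19.7%), against 713 in the flanks (18.3%) and 16.0% of all sites tested. The domain's share is thus near that of its flanks. Of those called lower, 494 in the domain were at 30 to 70% and 185 under 30%, against 392 and 321 in the flanks. The 185 and 321 are all the sites under 30% in each, every one of which was called. The split thus repeats the site levels given above and is not a separate result of the test. The test called 516 domain sites higher than the autosomal level (14.0%), against 710 in the flanks (18.2%) and 22.2% of all sites tested. At 20 reads a site was called lower with at most 10 methylated reads (50%), so many sites of 50 to 70% could not be called at this depth. The tests are over reads within 1 library.

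On the side of the lower coordinates the change within the domain did not come at its edge, and part of the flank there had raised shares too. In 100 kb steps, the CpG level ran from 63.0% to 87.4% with a median of 75.8% over the 40 domain steps, against 67.7% to 87.2% and a median of 77.2% over the 40 flank steps, and 33 of the 40 domain steps lay below the autosomal median step of 80.2%. The 3 highest domain steps began at 66200001 (87.4%), 66500001 (87.2%) and 65900001 (86.7%), all before Snrpn. The 3 lowest began at 67600001 (63.0%), 67500001 (64.3%) and 69500001 (67.1%), the last being the step that begins at the Ndn landmark. The share of sites at 30 to 70% ran from 7.63% to 40.6% with a median of 27.9% in the domain, against 10.1% to 38.4% and a median of 19.9% in the flanks. It exceeded the 95th percentile of autosomal steps (27%) in 21 domain steps, against 5 flank steps. At the edge of higher coordinates the share was 31.9% in the last domain step. In the flank steps from 69800001 on it was 23.2%, 38.4%, 17.1% and 16.1%, so it fell near that edge, though not evenly. In the flank of lower coordinates it was 23.8%, 26%, 29.2%, 27.8% and 26.7% in the steps from 64600001 to 65100000. The CpG level there fell as low as 67.7%. The highest shares were in the steps beginning at 69600001 (40.6%), 67600001 (40.2%) and 66900001 (40%, of only 30 sites), and the lowest in those at 66500001 (7.63%), 65900001 (8.42%) and 66200001 (10.5%). Across steps the level and this share are computed from the same sites, and they ran opposite to each other (Spearman's rho -0.829 and Pearson's r -0.818 over 40 steps, as a description).

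Split at the Snrpn and Ndn steps, the share of partly methylated sites was 17.2% before the Snrpn step (178 of 1032; 15.0 to 19.7%), near the autosomal 16.9%. It was 26.0% in the Snrpn step (25 of 96; 17.6 to 36.0%) and 30.3% between the Snrpn and Ndn steps (671 of 2211; 28.4 to 32.3%). It was 35% in the Ndn step (56 of 160; 27.6 to 42.9%) and 35.1% after it (65 of 185; 28.3 to 42.5%). The CpG level was 79.7% before the Snrpn step, 79.9% in it, 74.2% between the steps, 67.1% in the Ndn step and 73.3% after it. The share was not even before Snrpn. It was 7.63% to 17.3% in the 8 steps from 65800001 to 66600000, and 22.6%, 31.5%, 20.6%, 40% and 35.1% in the 5 steps from 66600001 to 67100000, so higher shares began ahead of the Snrpn step. The intervals of the stretch before Snrpn and of the Snrpn step overlap that of the flanks. Listed sites were thin just ahead of Snrpn, with 30 to 62 CpG sites a step from 66600001 to 67000000. The step from 67000001 held 7 of the 8 domain CpG sites with more than 100 reads. Whether the reads of its other sites come from 1 genomic position was not tested.

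**Figure D2:**
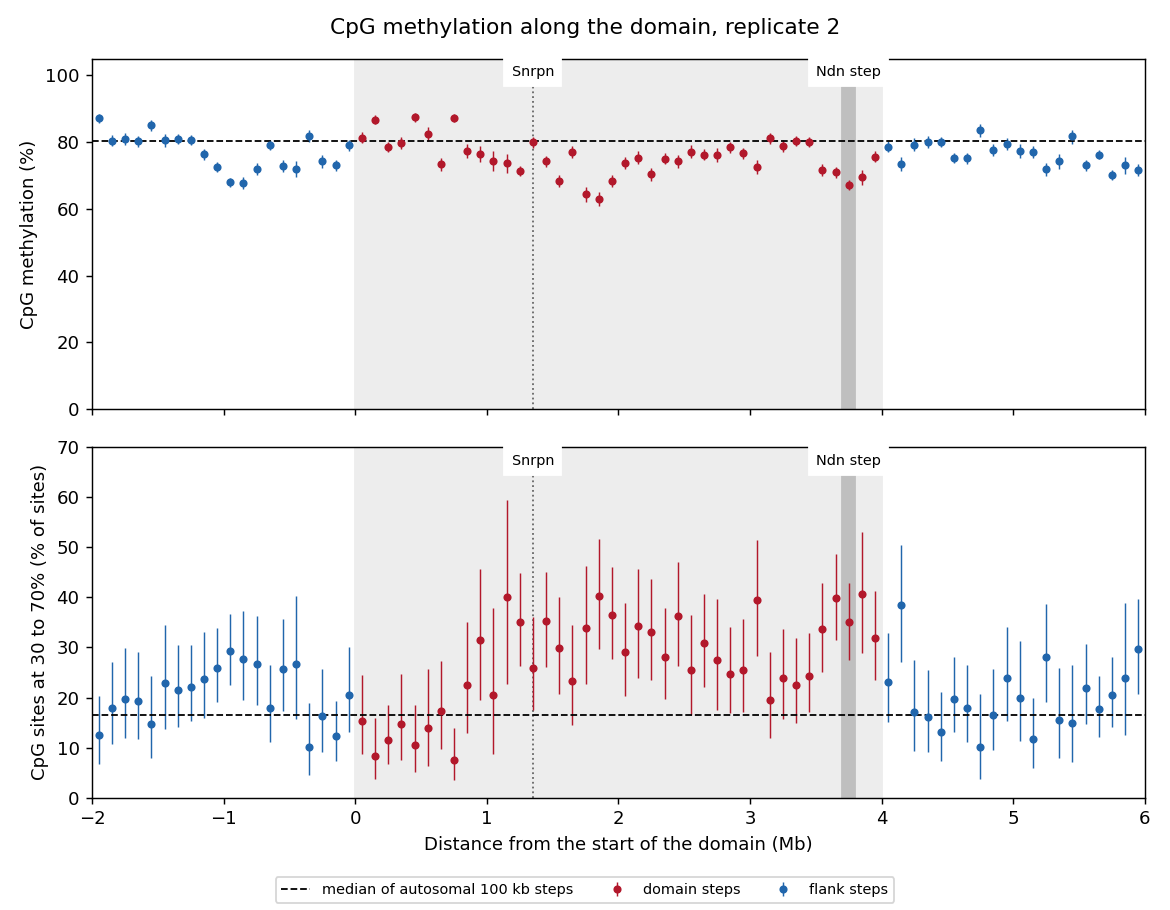
CpG methylation (upper panel, percent of reads) and share of CpG sites at 30 to 70% (lower panel, percent of sites) in 100 kb steps of replicate 2, by distance from the start of the domain (Mb), with exact 95% intervals, domain steps in red on grey and flank steps in blue. The dashed line is the median of autosomal steps, the dotted line the Snrpn landmark and the dark band the Ndn step; the share rises above the dashed line over most of the domain from about 1 Mb on, and 21 of 40 domain steps pass the autosomal 95th percentile.

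Around the Snrpn landmark at 67.15 Mb, partly methylated CpG lay together within 10 kb. In the window 67145001 to 67155000, 8 of 12 listed CpG sites were at 30 to 70% (66.7%; 34.9 to 90.1%), and the level was 67.2% (174 of 259 reads; 61.1 to 72.9%). From 67145911 on, the sites read 54.5%, 68.2%, 55%, 71.4%, 55%, 54.5%, 70%, 60% and 35%, on 20 to 22 reads each. The lowest of them was the last, at 67151932, and the final 3 sites of the window were at 81.8%, 100% and 89.3%. The intervals of single sites are wide: the site at 67148025 had 11 of 20 reads methylated (31.5 to 76.9%). None of these sites was unmethylated, and 4 of the 12 were above 70%. Outside the window most listed sites within 20 kb were above 70%, the exceptions being 61.3% at 67131997, 66.7% at 67133396 and 48.1% at 67160888. The Snrpn step as a whole ranked 9 of 40 in CpG level and 22 of 40 in the share of partly methylated sites, so the window did not set its step apart.

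Of the 216002 autosomal windows of 10 kb with at least 5 CpG sites, 812 (0.376%) had a share of partly methylated sites as high as at Snrpn or higher, where the median was 15.0%. In the domain 8 of 337 windows did, the one at Snrpn included, with a median of 25%. The other windows began at 67255001 (7 of 10 sites), 67575001 (6 of 9), 67735001 (8 of 11), 67855001 (4 of 6), 68465001 (4 of 6), 68825001 (7 of 10) and 69655001 (5 of 7). All lie past Snrpn. The landmark was part of the rule for the region, whereas the other windows were found by their values. CHG methylation in the Snrpn window was 0.469% (72 sites; 0.203 to 0.923%) and CHH methylation 0.579% (31 sites; 0.213 to 1.26%), and both intervals hold the domain's own levels.

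**Figure D3:**
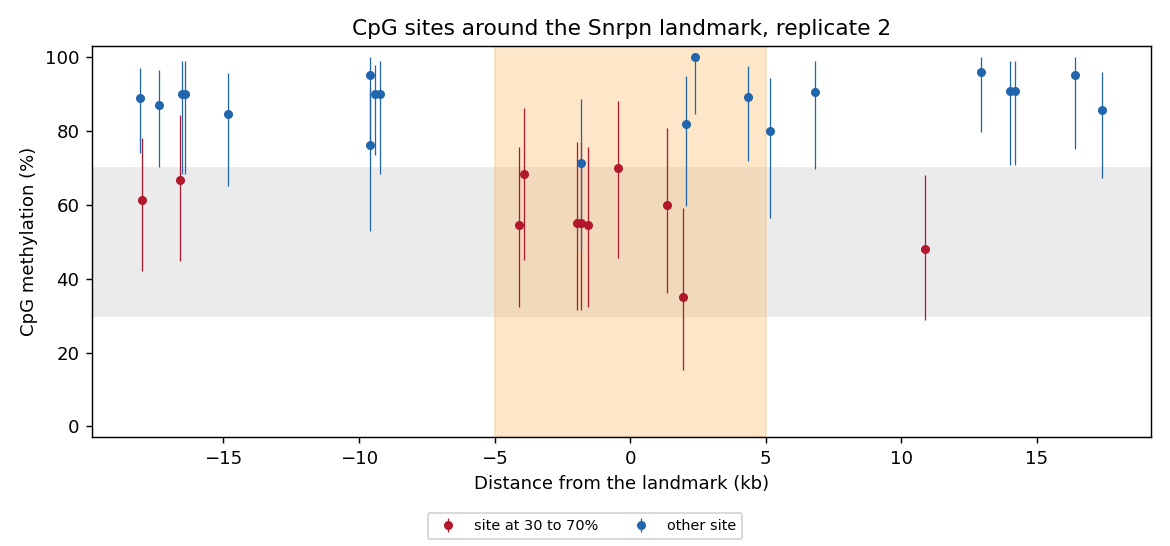
CpG methylation (y axis, percent) of each listed site within 20 kb of the Snrpn landmark (x axis, distance in kb) in replicate 2, with exact 95% intervals; red points are at 30 to 70% (grey band) and the orange band is the 10 kb window. The 8 red points of the window stand between neighbours that are mostly above 70%.

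In the Ndn step (69500001 to 69600000), 56 of 160 CpG sites were at 30 to 70% and a further 19 were below 30%, and its level of 67.1% (65.5 to 68.5%) was the third lowest of the domain. It is named for the landmark, and whether Ndn itself lies in it or before it was not determined. The preceding step, which ends at the landmark, had 53 of 133 sites in the band (39.8%) and a level of 70.9%. Some of the intermediate sites lay in compact groups, of which 3 held 7, 2 and 5 of the 56, and the others were scattered through the step. The 10 sites from 69522084 to 69522208 had 101 of 223 reads methylated (45.3%; 38.6 to 52.1%). In order they read 35%, 27.3%, 40%, 30%, 40.9%, 48%, 84.6%, 12.5%, 68.2% and 59.1%. Neighbouring sites there were not alike, since 84.6% (22 of 26 reads at 69522166) stood next to 12.5% (3 of 24 reads at 69522193). The 10 sites from 69572805 to 69573412 had 99 of 238 reads methylated (41.6%; 35.3 to 48.1%) and were more uneven still, running from 0 of 24 reads at 69573412 to 25 of 28 reads (89.3%) at 69573220. Between them, 5 sites from 69552475 to 69552799 were at 49.0% (39.1 to 59%), with single sites of 26.1% to 75%. A further run of 3 sites at 69493947 to 69494012, just before the landmark, had a level of 58.5% (45.6 to 70.6%).

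**Figure D4:**
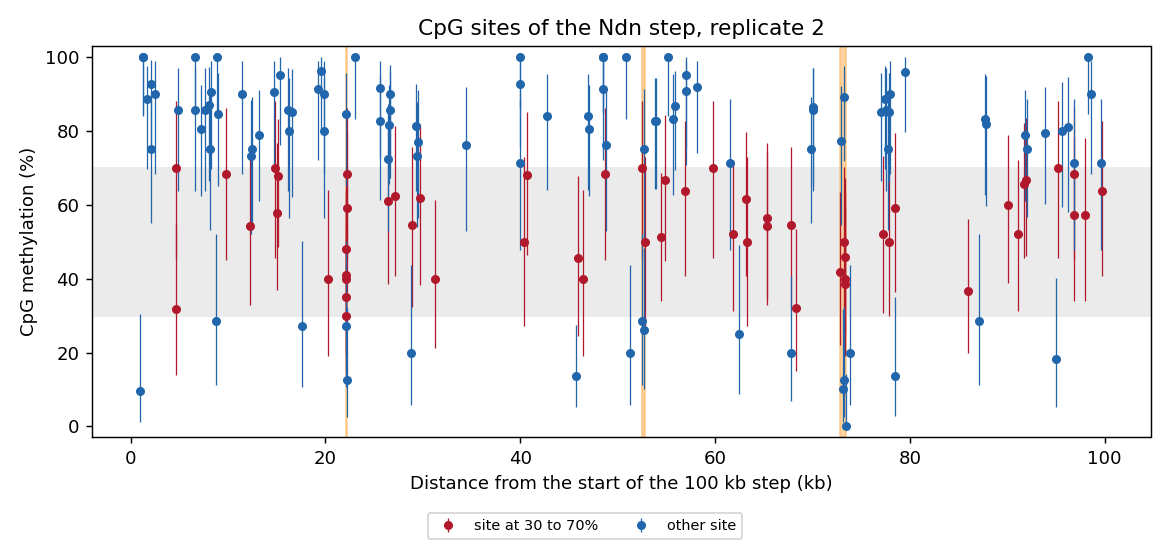
CpG methylation (y axis, percent) of every listed CpG site in the Ndn step (x axis, distance in kb from the start of the step) in replicate 2, with exact 95% intervals; red points are at 30 to 70% (grey band) and orange bands mark the groups of 5 or more neighbouring sites at an intermediate level. The groups, at 45.3%, 49.0% and 41.6%, lie among scattered intermediate and high sites.

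The promoter window of Gm32061, a RefSeq gene of the same stretch chosen after its placement was known, could be placed at chr7:69568235-69568534, where 10 listed cytosines all fell on matching letters. It is shown on the plus strand with the listed cytosines in capitals, together with the G of the listed CG.
Gm32061: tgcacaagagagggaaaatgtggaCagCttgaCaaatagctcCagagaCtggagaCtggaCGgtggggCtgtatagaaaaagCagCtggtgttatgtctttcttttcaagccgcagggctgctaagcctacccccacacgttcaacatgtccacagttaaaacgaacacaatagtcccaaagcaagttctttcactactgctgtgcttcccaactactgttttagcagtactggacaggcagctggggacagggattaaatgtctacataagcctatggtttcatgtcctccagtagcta
Its listed CG, at 69568295, had 8 of 25 reads methylated (32.0%; 14.9 to 53.5%). Of its CHG reads 1 of 176 was methylated (0.568%; 0.0144 to 3.12%), and of its CHH reads 1 of 62 (1.61%; 0.0408 to 8.66%). The window of B230209E15Rik, placed at chr7:68760163-68760462, had 9 listed CHG sites and 0 of 218 methylated reads (interval to 1.68%), and both windows lay at the same offset from their RefSeq positions. The Ipw window matched both from 66951433 and from 67014535, and neither match had the offset shared by Gm32061 and B230209E15Rik. Its place is thus uncertain, and neither match can be taken as the Ipw promoter. The CHH level was 0 of 409 reads at the first and 12 of 957 reads (1.25%; 0.650 to 2.18%) at the second.

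Partly methylated CpG also lay in rows elsewhere. Runs of at least 3 listed CpG in a row, all at 30 to 70% with gaps of at most 1 kb, numbered 40 in the domain (10.9 per 1000 CpG sites), against 28 in the flanks (7.20) and 19851 on the autosomes (6.91). They held 3.88% of the domain's CpG sites, against 2.39% of those in the flanks and 2.38% of autosomal sites. The longest in the domain was 7 sites, in the flanks 6 and on the autosomes 14. The 4 domain runs of at least 5 sites lay at 67637665 to 67638124 (5 sites, 46.8%), 67767840 to 67769034 (6 sites, 47.9%), 67879026 to 67880074 (5 sites, 57.2%) and 69445245 to 69446411 (7 sites, 59.6%). None of these 4 lies at Snrpn or in the Ndn step. The first 3 lie between Snrpn and Ndn, and the last just before the Ndn landmark.

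Groups of at least 5 listed CpG at most 200 bp apart, a grouping chosen after the values were seen, numbered 39 in the domain and 48 in the flanks. Of these, 10 domain groups had a level of 30 to 70% (25.6%; 13.0 to 42.1%), against 8 flank groups (16.7%; 7.48 to 30.2%) and 16.5% of 61526 autosomal groups. The intervals of the domain and the flanks overlap widely at these numbers. Beside those of the Ndn step, the lowest intermediate groups were at 67389616 to 67389844 (5 sites, 41.1%) and 67767828 to 67768088 (7 sites, 42.8%). A group at 66485301 to 66485641 (7 sites) was nearly unmethylated, with 2 of 160 reads (1.25%; 0.152 to 4.44%), and it was 1 of 2 domain groups below 30%, the other being 67388711 to 67388760 (6 sites, 23.2%). Groups below 30% made up 5.13% in the domain, against 8.33% in the flanks and 10.3% over the autosomes.

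Methylation outside CpG, which accumulates in neurons, was low in the domain. CHG methylation was 0.501% of reads (0.485 to 0.517%), against 0.672% (0.654 to 0.691%) in the flanks and 0.784% over the autosomes. CHH methylation was 0.543% (0.522 to 0.564%), against 0.790% (0.760 to 0.820%) and 0.889%. Mitochondrial DNA, taken as unmethylated and so as the level that failed conversion gives, was at 0.368% for CHG and CHH together. Above that level the domain held 0.133 points of CHG, against 0.305 in the flanks and 0.416 over the autosomes, and 0.175 points of CHH, against 0.422 and 0.521. Among autosomal stretches of 4 Mb, 15 of 625 (2.40%) had less CHG and 27 of 623 (4.33%) less CHH methylation.

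The low level held over most of the domain. Of the 40 domain steps, 37 lay below the autosomal median of CHG (0.734%) and 16 below its 5th percentile (0.431%), against 28 and 1 of the 40 flank steps. For CHH, 35 of 40 domain steps lay below the autosomal median (0.831%), against 25 of 39 flank steps. The interval of the step reached the mitochondrial level or lay below it in 17 domain steps for CHG and 20 for CHH, against 5 and 8 in the flanks. In those steps the level of the whole step could not be told from failed conversion at this depth. Single sites could still stand above it, since the site test given below called CHG sites in 39 domain steps and CHH sites in 36. CHG methylation was highest in the first stretch: it was 0.598% (0.564 to 0.633%) before the Snrpn step, 0.494% in the Snrpn step, 0.467% (0.448 to 0.486%) between the steps, 0.491% in the Ndn step and 0.436% after it. CHH was 0.596%, 0.516%, 0.512%, 0.861% (0.706 to 1.04%) and 0.460% over the same stretches, so in CHH the interval of the Ndn step lay above the levels on both sides, while its CHG interval (0.406 to 0.590%) held the CHG levels on both sides. The step at 69400001, just before it, was at 0.840% CHH.

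The highest CHG steps began at 66000001 (1.09%), 69400001 (0.801%) and 66800001 (0.755%), and the lowest at 68300001 (0.280%), 68500001 (0.343%) and 66900001 (0.351%). The highest CHH steps began at 65900001 (1.46%), 65800001 (0.989%) and 66000001 (0.916%), and the Ndn step came next (0.861%). The lowest began at 68100001 (0.230%), 66600001 (0.250%, of 51 sites) and 67900001 (0.262%). The step at 66000001 was among the highest in both contexts, and 4 of these 6 lowest steps began between 67900001 and 68500001. Across the 40 steps the CHG and CHH levels ran loosely together (Spearman's rho 0.418, Pearson's r 0.526, as a description), while the CpG and CHG levels did so less (rho 0.197, r 0.174).

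**Figure D5:**
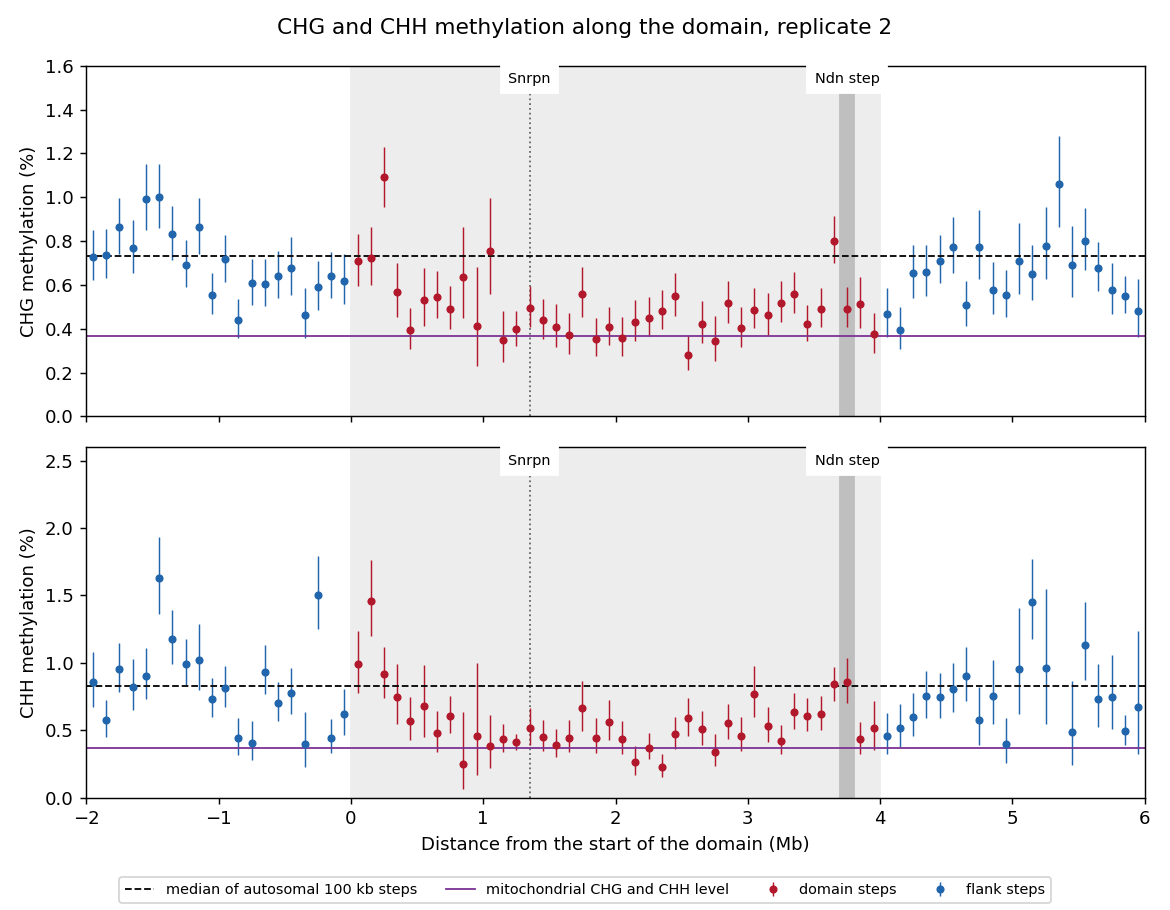
CHG (upper panel) and CHH (lower panel) methylation (y axes, percent of reads) in 100 kb steps of replicate 2, by distance from the start of the domain (Mb), with exact 95% intervals, domain steps in red on grey and flank steps in blue. The dashed line is the median of autosomal steps and the purple line the mitochondrial level; 37 of 40 domain steps lie under the dashed line for CHG and 35 of 40 for CHH.

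Single CHG and CHH sites were set against the mitochondrial level with a one-sided exact binomial test, adjusted over all nuclear sites of the context at 0.01. It called 213 CHG sites in the domain (0.682%; 0.594 to 0.780%), against 335 in the flanks (1.07%) and 1.46% of all sites tested. It called 188 CHH sites (1.34%; 1.15 to 1.54%), against 240 in the flanks (2.39%) and 2.75% of all sites tested. Called sites were thus less frequent in the domain than in its flanks in both contexts, and neither interval reached the flanks' share. Against a background of 1% the domain's calls numbered 85 of 31210 CHG and 49 of 14071 CHH sites. Calls in the flanks and over all sites were not counted at that background, so whether the domain has fewer there was not tested. The level of the 213 CHG and 188 CHH called sites was mostly modest, with a median of 16.0% for CHG and 12.5% for CHH. Of them, 8 CHG and 9 CHH sites reached 30%. Before the Snrpn step 0.957% of CHG sites were called (76 of 7938), and between the Snrpn and Ndn steps 0.614% (123 of 20024). The Snrpn step and the Ndn step had 4 called CHG sites each (0.444% and 0.421%). The step at 66000001 had the most called CHG sites (21) and that at 69400001 the most called CHH sites (14). A CHG site at 66068597 was methylated in 24 of 24 reads (100%; adjusted p = 2.6e-53 by the exact binomial test) and a CHH site at 65998428 in 23 of 35 reads (65.7%; adjusted p = 9.38e-44, exact binomial test). Whether the strain's sequence at these positions matches mm9 was not tested.

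Replicate 1 could be set beside replicate 2 at few sites. Its 25 CpG sites in the domain had a level of 68.1% (64.6 to 71.4%), and 12 of them were at 30 to 70% (48.0%; 27.8 to 68.7%). In its flanks 4 of 10 were (40%; 12.2 to 73.8%), and over its autosomal sites 20.9%. The 4 all lay in the flank of lower coordinates (4 of 6 sites, against 0 of 4 in the other). Of the 25 domain sites, 16 lay before the Snrpn step and none in the Snrpn or Ndn step. Of those 16, 9 were in the band (56.2%; 29.9 to 80.2%), against 2 of 8 between the steps (25%; 3.19 to 65.1%). This order is opposite to that in replicate 2, over few sites and with overlapping intervals. Its 129 CHG sites were at 0.356% (0.195 to 0.596%), against 0.443% in its flanks and 0.876% over its autosomes. The mitochondrial level of replicate 1 was 0.418%. Its 501 CHH sites were at 1.33% (1.15 to 1.52%), against 3.43% CHH in its flanks and 1.28% over its autosomes. The flank of lower coordinates was at 5.03% CHH (258 of 5125 reads) and the other at 0.469% (13 of 2772 reads), so the domain lay between them. So in replicate 1 the domain's CHH level was near the autosomal one, unlike in replicate 2, over few sites. At the 13 CpG sites listed in both libraries, replicate 1 was at 62.4% and replicate 2 at 62.7%, with a median difference of 13.6 points and a largest of 25.7 points between them. Several of these sites lie close together, from 67003449 to 67005985, at 42 to 94 reads in replicate 2. They are in the step from 67000001, which also held most of the domain's sites over 100 reads. Whether the reads there come from 1 genomic position was not tested. Over all 3185 shared nuclear CpG sites the median difference was 7.76 points. Fisher's exact test, adjusted over the 54732 shared nuclear sites at 0.05, called none of the 212 shared sites of the domain, and 0.0238% of all shared sites were called. An unadjusted p under 0.05 was reached by 4 of the 13 CpG sites of the domain, against 416 of 3185 over all nuclear CpG sites, and by 1 of its 141 CHH and 0 of its 58 CHG sites. This compares the libraries, not conditions. The 5 shared sites at an intermediate level in replicate 2 were 66516312 (33.3% in replicate 1 and 44.8% in replicate 2), 67003449 (55.9% and 30.2%, the largest difference), 67003470 (53.3% and 57.4%), 67005965 (55.9% and 44.7%) and 67336948 (61.9% and 50%). They lie outside the Snrpn window, so the levels there rest on replicate 2 alone.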

How the data were processed

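Bisulfite reads were mapped with Bismark 0.7.5 to mm9, per the submitters' processing notes. How reads were trimmed, or duplicates treated, is not given in the sources used here. Of 1 strand class, the authors deposited 6 tables: for each cytosine, counts of methylated and unmethylated reads with their total, and the methylated percent. The other strand was not analysed. In these deposited tables the counts summed to the totals and gave the percent within 1e-06. Total depth per site starts at 20 reads (30 for CHH in replicate 2), with medians of 23 to 32. The tables held 4440703 to 20843465 read calls in replicate 1 and 77868153 to 451032782 in replicate 2, so the precision of replicate 1 is far lower. Spreads between the libraries may be technical in part.

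Levels are methylated reads over all reads of sites with at most 100 reads. Exact binomial and Fisher tests (scipy 1.17.1, Python 3.11.15) were adjusted by Benjamini-Hochberg over all autosomal CpG sites, all nuclear CHG or CHH sites, or all shared nuclear sites. Each kind of test was first tested on simulated counts. A CpG site at 30 to 70% was called partly methylated, as in the rule for the region. The 100 kb steps named are those of the landmarks and the 3 highest and 3 lowest by level among steps with at least 20 sites. Runs named have at least 5 sites, with up to 10 sites given each. Genes named are those of the domain and of its neighbours, with exceptions marked. The region, lists and settings were chosen with earlier results of these data known. Alternatives were other depth limits, flank sizes, bands, gaps and call levels. No mm9 sequence or annotation was used here, so gene positions beyond the landmarks are not given.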

Additional observations from a re-analysis of the deposited data

Results flagged for a closer look

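Sites of the domain with more than 100 reads were kept out of all levels. The 46 such CHG sites had 0.587% of reads methylated (0.444 to 0.762%) and the 195 such CHH sites 0.533% (0.464 to 0.610%), both above the mitochondrial level of 0.368%. Both intervals hold the levels of the other domain sites, 0.501% and 0.543%. The 8 such CpG sites were at 71.8%. Most lay in the step from 67000001 (7 CpG, 39 CHG and 153 CHH sites), with up to 376 reads a site, and whether their reads come from 1 genomic position was not tested.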

How the results depend on the processing

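Of 69 alternative values, 31 stayed near the reported one, 37 moved and 1 reversed. The CpG level of the domain was 74.5% at sites of at least 30 reads and 65.8% at 40, and its difference from the flanks was 0.0469 points with 1 Mb flanks (reversed), -1.6 with 4 Mb and -1.34 at 30 reads. The CHG level was 0.48% at 30 reads and 0.419% at 40, and its difference from the flanks -0.105 points with 1 Mb flanks, -0.2 with 4 Mb, -0.244 at 30 reads, -0.199 against the flank of lower coordinates and -0.137 against the other. The CHH level was 0.472% at 40 reads, and its difference -0.153 points with 1 Mb flanks, -0.292 and -0.175 by flank. The share of partly methylated CpG was 12.7% for a band of 40 to 60% and 44.9% for 20 to 80%, and its excess over the flanks 3.22 and 9.2 points (6.45 as reported). Runs numbered 7 and 120 with those bands, 4 with at least 5 sites, 12 with gaps of 200 bp and 64 with 2 kb. Sites called lower numbered 98 of 423 at 30 reads. CHG calls numbered 85 against a background of 1%, 39 at 30 reads and 2 at 40. CHH calls numbered 49 against 1% and 13 at 40 reads. Intermediate groups were 4 of 21 (19%) with gaps of 100 bp and 3 of 4 (75%) with at least 8 sites, and the Snrpn share was matched by 0.110% of windows of at least 10 sites and by 0.535% with a band of 40 to 60%, choices made after the data were seen. Without replicate 2, the domain was at 68.1% CpG, 0.356% CHG and 1.33% CHH, with 48% of CpG partly methylated. With a higher depth minimum, counts of calls fall with fewer sites listed. The background of 1% instead sets the same sites (31210 CHG and 14071 CHH) against a higher level. Other causes were not tested. No paired analysis was possible because the libraries form a single group.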
